A study of Mus musculus with 18 samples.

Results

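Genes of fatty acid uptake and binding were followed across epididymal white adipose tissue (eWAT, the fat pad beside the epididymis) and liver of male C57BL/6J mice. They were the rows of a gene expression table whose Ensembl identifiers carry the symbols Lpl, Angptl4, Vldlr, Cd36, Slc27a2, Slc27a5, Fabp1, Fabp2, Fabp4 and Fabp5, and all 10 were found among 23474 genes. Messenger RNA had been sequenced from 18 libraries, with 3 in each of 6 groups. In each tissue the groups were HP (high-fat diet-prone), HR (high-fat diet-resistant) and ND (normal diet). All mice were 17 weeks old, after 12 weeks on the diets from 5 weeks of age, and no group carried a transgene or a drug. The strain tag of the labels is spelled C56BL/6J, and the labels do not say how prone and resistant mice were told apart, nor whether the libraries of a group are different mice. The p-values below therefore measure the spread between these libraries, which may be technical in part. Values are the authors' FPKM, fragments scaled by transcript length and by the mapped fragments of the library, which allows levels of different genes to be compared, and the absolute depth of the libraries is unknown.

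Cells take up fatty acids from triglyceride-rich lipoproteins and from albumin. Lipoprotein lipase (Lpl) cuts triglycerides at the capillary wall and is inhibited by the secreted protein Angptl4, and the VLDL receptor (Vldlr) binds the lipoprotein particles. The scavenger receptor Cd36 carries fatty acids into the cell, the FATP proteins Slc27a2 and Slc27a5 couple fatty acids or bile acids to coenzyme A, and the small fatty acid-binding proteins carry them through the cytosol: Fabp1 in liver and gut, Fabp2 in gut, Fabp4 in fat cells and macrophages, and Fabp5 in skin, macrophages and many other cells.

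The labelled tissues showed their defining transcripts. Summed FPKM of 5 adipocyte markers (Adipoq, Plin1, Cidec, Retn and Lep) lay between 801 and 7716 in the eWAT libraries, and that of 5 hepatocyte markers lay between 12956 and 43894 in the liver libraries. A pair of eWAT libraries, ND 1 and HR 2, stood apart. Spermatid transcripts (4 genes) summed to 92413 FPKM in ND 1 and 11231 FPKM in HR 2, against at most 2282 FPKM in the other 7, and the adipocyte markers were at their lowest in these libraries, with 1251 FPKM in HR 2 and 801 FPKM in ND 1. Epididymis transcripts (5 genes) summed to 16679 FPKM in ND 1 and 1188 FPKM in HP 2, of which Crisp1 gave 1172 FPKM in HP 2. Their sum was at most 10.6 FPKM in the remaining eWAT libraries. An FPKM value depends on every other transcript of its library. For this reason eWAT was fitted over all 9 libraries and over the 7 without ND 1 and HR 2. The latter fit leaves 3 HP (HP 2 included), 2 HR and 2 ND libraries. A value of exactly 0 can be a failed estimate in this table: Alb, encoding albumin, is listed at 0 in liver HP 3 and at 21466 to 28319 FPKM in the other 8 livers, and Cav1, a gene of fat cell caveolae, is listed at 0 in all 18 libraries.

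The tissues used different members. Over 7 eWAT libraries the order by median FPKM was Fabp4, Lpl, Cd36, Angptl4, Fabp5 and Vldlr, with Slc27a2, Fabp1 and Slc27a5 at medians of 1.85, 0.174 and 0.168 FPKM. Over 9 liver libraries the order was Fabp1, Slc27a2, Slc27a5, Angptl4, Cd36, Fabp5, Fabp4, Lpl and Vldlr. Fabp4 was the second most abundant transcript of eWAT by median, with 12038 to 23308 FPKM in the 7 libraries and 2.28 to 3.83% of all FPKM. Fabp1 ranked 10 in liver, with 7925 to 16868 FPKM and 1.08 to 1.81% of all FPKM. In eWAT the ranges of Lpl and Cd36 overlapped, as did those of Angptl4 and Fabp5, and those of the 3 lowest detected members. In liver the ranges of Angptl4, Cd36, Fabp5 and Fabp4 overlapped each with its neighbour, and so did those of Lpl and Vldlr. Fabp2, the intestinal binding protein, is listed at 0 in every library and was not tested.

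**Figure D1:**
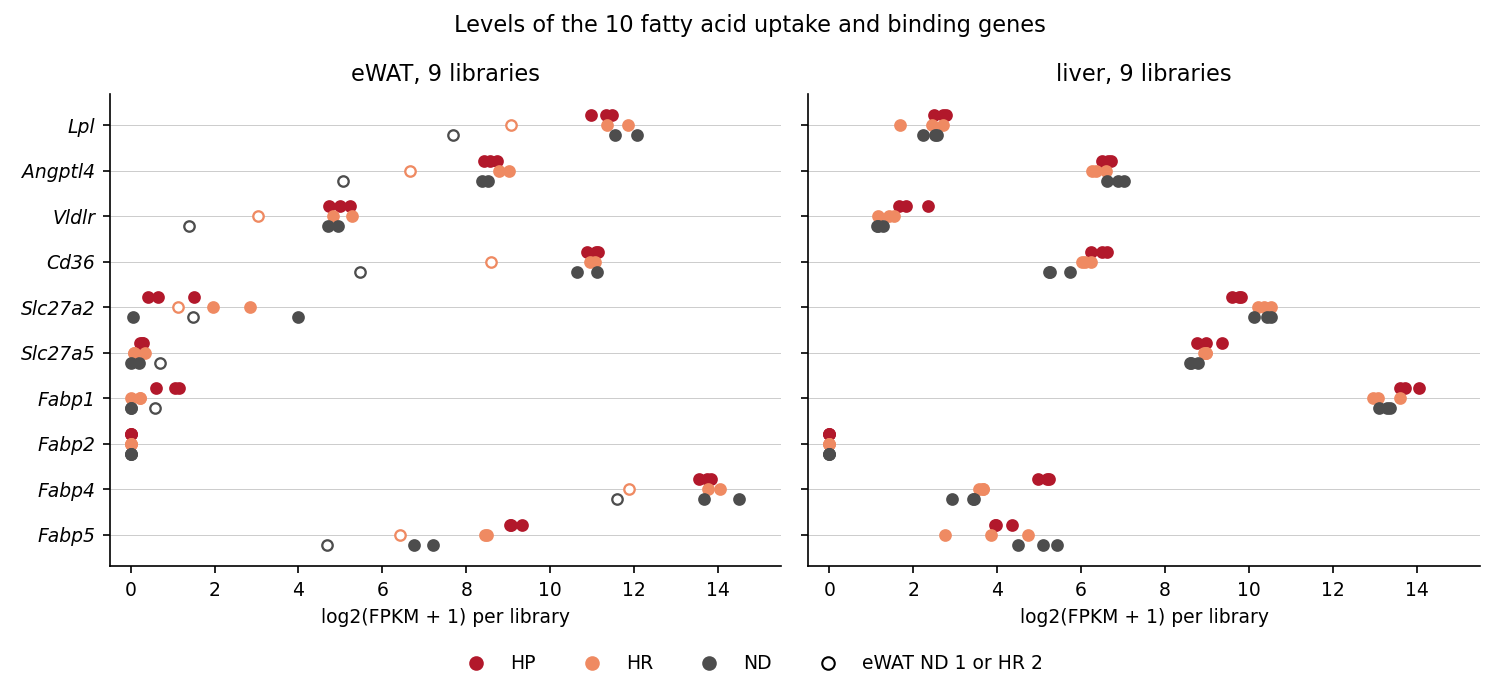
Levels of the 10 genes as log2(FPKM + 1), with eWAT on the left and liver on the right; each point is 1 library, coloured by group (HP, HR, ND), and open points are eWAT ND 1 and HR 2. Fabp4, Lpl and Cd36 lead in eWAT, Fabp1, Slc27a2 and Slc27a5 lead in liver, and the open points lie left of their groups for Lpl, Angptl4, Vldlr, Cd36, Fabp4 and Fabp5.

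RefSeq's table of gene starts for the GRCm38.p6 build held 5 of the 10 members, namely Fabp1, Fabp2, Slc27a2, Cd36 and Vldlr. The 250 bases before the start are shown for Fabp1 and Slc27a2, the most abundant members in liver, and for Cd36, the member that passed the test in both high-fat liver groups. Capitals mark AGGTCA, the core motif that many nuclear receptors bind, read on the other strand as its complement, and TATAAA, the TATA box motif. The windows are Fabp1 at chr6:71199629-71199878 on the plus strand, Slc27a2 at chr2:126552774-126553023 on the plus strand and Cd36 at chr5:17835897-17836146 on the minus strand.
Fabp1: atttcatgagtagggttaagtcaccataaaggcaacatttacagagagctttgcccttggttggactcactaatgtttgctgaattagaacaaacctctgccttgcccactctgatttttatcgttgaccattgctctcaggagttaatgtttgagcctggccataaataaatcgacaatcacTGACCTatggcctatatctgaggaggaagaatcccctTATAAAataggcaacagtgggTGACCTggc
Slc27a2: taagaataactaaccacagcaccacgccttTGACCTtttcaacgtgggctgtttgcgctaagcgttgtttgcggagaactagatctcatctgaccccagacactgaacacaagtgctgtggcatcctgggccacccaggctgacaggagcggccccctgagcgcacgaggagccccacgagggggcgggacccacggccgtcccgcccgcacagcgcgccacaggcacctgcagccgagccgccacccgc
Cd36: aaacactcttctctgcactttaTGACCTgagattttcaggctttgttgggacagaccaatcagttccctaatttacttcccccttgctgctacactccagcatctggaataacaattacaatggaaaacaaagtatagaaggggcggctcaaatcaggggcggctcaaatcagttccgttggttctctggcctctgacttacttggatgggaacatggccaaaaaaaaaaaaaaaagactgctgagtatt
The Fabp1 window held AGGTCA on the other strand at bases 67 to 62 and 9 to 4 before the start and TATAAA on the same strand at bases 30 to 25. The Slc27a2 and Cd36 windows held AGGTCA once each, on the other strand, at bases 220 to 215 and 228 to 223. Searched on both strands of the 250-base windows of 32851 gene starts, AGGTCA was in 14% and TATAAA in 12.4%. Neither motif was in the windows of Fabp2 and Vldlr. A direct repeat of AGGTCA with 1 base between, searched on both strands too, was in 0.0335% of all windows and in none of the 5 members' windows. These matches describe the letters only.

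Levels differed between the tissues for nearly every member, tested in limma on log2(FPKM + 1) over all 18 libraries with Benjamini-Hochberg adjustment over 15006 genes. In HP mice 6 members were higher in eWAT and 3 were higher in liver, against 43.1% and 10.4% of all genes tested. The difference, eWAT minus liver, was 8.60 ± 0.89 for Lpl, 8.57 ± 0.61 for Fabp4, 5.06 ± 0.66 for Fabp5, 4.58 ± 1.07 for Cd36, 3.04 ± 0.73 for Vldlr and 1.95 ± 0.74 for Angptl4 (log2 ± SE). It was -8.77 ± 0.20 for Slc27a5, -8.85 ± 0.70 for Slc27a2 and -12.84 ± 0.23 for Fabp1. The adjusted p-values of these 9 members were at most 0.0370, that of Angptl4, whose call held in 17 of 26 alternative settings. In HR mice 5 members were higher in eWAT and 3 in liver, against 43.1% and 10.4% of all genes, and Angptl4 missed the threshold (limma adjusted p = 0.0599). In ND mice 4 were higher in eWAT and 3 in liver, against 39.6% and 10% of all genes, and Fabp5 (1.22 ± 0.66, limma adjusted p = 0.127) and Angptl4 (limma adjusted p = 0.594) did not pass. Quantile normalization ended the eWAT call of Vldlr in all 3 diet groups, and leaving out eWAT ND 3 ended those of Vldlr and Cd36 in ND mice. Without eWAT ND 1 and HR 2, all 9 tested members passed in each diet group, and Fabp5 in ND mice differed by 1.98 ± 0.42 (limma adjusted p = 0.000824). Most genes passed in that fit. Of all 15006 genes, 8857 in HP, 8541 in HR and 9852 in ND mice were higher in eWAT, and 2248, 2011 and 1862 were higher in liver.

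Liver was where most diet calls of these genes lay, but between HP and ND more of all genes passed there too. In eWAT 2.11% of all genes passed in that comparison over 9 libraries, and 15.7% rose and 7.4% fell over 7. Of the 9 members tested in liver, Fabp4, Cd36 and Vldlr rose and Slc27a2 fell in HP livers relative to ND livers, at an adjusted p under 0.05 in limma over the 9 liver libraries. Among all 10633 genes tested in liver, 17.6% rose and 14.1% fell in that comparison. The median difference of the 9 members was 0.37 on the log2 scale, against -0.02 for all genes. In bulk tissue, fewer cells of a type and less RNA per cell cannot be told apart.

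Fabp4, the binding protein of fat cells and macrophages, had 35.7, 30.2 and 36.7 FPKM in HP livers, 10.8, 11.6 and 11.6 FPKM in HR livers, and 9.73, 9.89 and 6.53 FPKM in ND livers. All 3 HP livers lay above the other 6, and the HR livers lay just above the ND livers with no overlap. Means were 34.2 ± 3.49 FPKM in HP, 11.3 ± 0.456 FPKM in HR and 8.72 ± 1.90 FPKM in ND (SD, n = 3 each), so HP was 3.92 times ND and 3.01 times HR. The log2 difference was 1.87 ± 0.15 between HP and ND (SE, limma adjusted p = 6.49e-05), 1.51 ± 0.15 between HP and HR (limma adjusted p = 0.000842) and 0.36 ± 0.15 between HR and ND, which did not pass (limma adjusted p = 0.219). Fabp4 passed HP against ND and HP against HR in all 17 alternative settings of each. Of the 5 adipocyte markers, Cidec alone reached the level for testing in liver. In HP 2, Plin1 and Lep were at 0 and Retn was at 0.0901 FPKM. Adipoq was at 1.4, 0 and 0.174 FPKM in HP 1, HP 2 and HP 3 livers and at 0 in all HR and ND livers, and Plin1, Retn and Lep were at most 0.723 FPKM in any liver, with their highest values in HP 1. Cidec, which fatty livers also express, was at 71.8, 76.7 and 115 FPKM in HP livers, 32.7, 29.8 and 29.3 FPKM in HR livers, and 55.0, 28.8 and 30.2 FPKM in ND livers. The summed adipocyte markers were nearly all Cidec. They spanned 74.8 to 116 FPKM in HP, 29.3 to 32.7 FPKM in HR and 28.8 to 55.1 FPKM in ND livers. Markers of brown or beige adipocytes (4 genes) summed to 19.9 to 27.9 FPKM in HP, 2.66 to 6.13 FPKM in HR and 1.63 to 3.83 FPKM in ND livers. Both of those tested, Cidea and Cox7a1, rose in HP relative to ND (3.17 ± 0.40 and 2.04 ± 0.32, limma adjusted p = 0.000613 and 0.00160) and relative to HR (1.69 ± 0.40 and 2.11 ± 0.32, limma adjusted p = 0.0254 and 0.00522), whereas Ucp1, the defining protein of brown fat, is listed at 0 in all 9 livers. Cidea was at 15.4, 7.66 and 6.11 FPKM and Cox7a1 at 7.29, 18.4 and 13.0 FPKM in HP 1, HP 2 and HP 3. Skeletal muscle transcripts (5 genes) summed to 0.12, 98.9 and 19.9 FPKM in these livers. The part of muscle in the Cox7a1 difference was not tested. Without HP 1 the Fabp4 difference between HP and ND was 1.84 on the log2 scale. The sum of 7 macrophage markers was 38.5 to 62.0 FPKM in HP, 23.4 to 81.2 FPKM in HR and 36.1 to 46.4 FPKM in ND livers, and of the 4 tested none passed between HP and ND and 1, Cd68, rose in HP relative to HR (1.26 ± 0.33, limma adjusted p = 0.0337). Of 5 Kupffer cell markers, which summed to 65.7 to 78.2 FPKM in HP, 46.8 to 119 FPKM in HR and 59.0 to 81.9 FPKM in ND livers, none passed between HP and ND and 1, Clec4f, rose in HP relative to HR (0.51 ± 0.14, limma adjusted p = 0.0450). The sum of 6 endothelial markers was 57.4 to 62.4 FPKM in HP, 38.1 to 50.3 FPKM in HR and 48.9 to 78.4 FPKM in ND livers, and 1 of them passed between HP and ND, Kdr, which fell. Among all genes tested in liver, 17.6% rose and 14.1% fell between HP and ND, and 7.2% rose between HP and HR. The part of these cell types in the Fabp4 difference was not tested.

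Cd36, the fatty acid translocase, was the member that passed in both high-fat groups. It had 89.1, 74.1 and 97.5 FPKM in HP livers, 63.9, 74.2 and 67.4 FPKM in HR livers, and 36.4, 52.2 and 37.4 FPKM in ND livers. Every high-fat liver exceeded every ND liver, and HP and HR overlapped only in that HR 2 was level with HP 2. The log2 difference was 1.04 ± 0.16 between HP and ND (limma adjusted p = 0.00139) and 0.71 ± 0.16 between HR and ND (limma adjusted p = 0.0375). In HR livers, 2.28% of all genes tested rose relative to ND, and Cd36 was the 1 member of 9 to do so. The HR call is fragile, since it held in 8 of 17 alternative settings and the adjusted p ranged to 0.151, although the difference stayed between 0.61 and 0.87. It was lost without any 1 of ND 1, ND 3, HR 1, HR 2 or HR 3. HP and HR did not pass against each other (0.33 ± 0.16, limma adjusted p = 0.176).

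Vldlr, the VLDL receptor, was the scarcest detected member in liver. It had 2.56, 2.14 and 4.07 FPKM in HP livers, 1.88, 1.68 and 1.25 FPKM in HR livers, and 1.18, 1.41 and 1.25 FPKM in ND livers. The HP livers lay above all others, and HR overlapped ND. The difference between HP and ND was 0.75 ± 0.18 on the log2(FPKM + 1) scale (limma adjusted p = 0.0105), where it understates the change of a gene this low, and the ratio of group means was 2.29. It passed in all 17 alternative settings, without HP 2 and without HP 3 among them. Skeletal muscle transcripts (5 genes) summed to 98.9 FPKM in HP 2 and 19.9 FPKM in HP 3, against at most 0.955 FPKM in the other 7 livers. No setting left out both HP 2 and HP 3, and the part of muscle in the Vldlr difference was not tested. HP against HR missed the threshold (0.57 ± 0.18, limma adjusted p = 0.0632), but passed with quantile normalization and with the length and GC correction (adjusted p = 0.0173 with the correction). HR against ND did not pass (0.19 ± 0.18, limma adjusted p = 0.604).

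Slc27a2, which activates long and very long fatty acids, went the other way. It had 863, 769 and 889.9 FPKM in HP livers, 1301, 1483 and 1179.9 FPKM in HR livers, and 1370.4, 1117 and 1475 FPKM in ND livers. The 3 HP livers were the lowest of all 9, and the ranges of HR and ND livers overlapped. It fell by 0.64 ± 0.15 in HP relative to ND on the log2 scale (limma adjusted p = 0.00997) and by 0.65 ± 0.15 in HP relative to HR (limma adjusted p = 0.0233), whereas HR and ND differed by 0.0037 ± 0.15 (limma adjusted p = 0.992). The call against HR was lost with no filter on low values, with quantile normalization, and without HP 2 or HR 2 (13 of 17 settings kept it). In HP relative to HR, Fabp4 was the member that rose and Slc27a2 the member that fell, against 7.2% and 3.94% of all genes tested.

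The other 5 members tested in liver did not pass between HP and ND. Fabp1, the main cytosolic fatty acid carrier of liver cells, had 13424, 16868 and 12387 FPKM in HP livers, 12441, 8614 and 7925 FPKM in HR livers, and 8707, 10060.5 and 10482 FPKM in ND livers. HP lay above ND without overlap, and HR 1 lay among the HP livers. The difference was 0.54 ± 0.21 between HP and ND (limma adjusted p = 0.0766) and 0.57 ± 0.21 between HP and HR (limma adjusted p = 0.101). Quantile normalization took the first to 0.05 and turned the second to -0.12. Without a variance trend HP against ND passed (adjusted p = 0.0453), and without HR 1, HP against HR passed (adjusted p = 0.0443).

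Slc27a5, an enzyme of bile acid conjugation, had 503, 658 and 432 FPKM in HP livers, 502, 482 and 505 FPKM in HR livers, and 387, 439 and 390.3 FPKM in ND livers. All 3 HR livers exceeded the ND livers, and HP 3 lay within the ND range. The differences were 0.37 ± 0.15 in HP (limma adjusted p = 0.0875) and 0.29 ± 0.15 in HR (limma adjusted p = 0.317), each relative to ND. HP against ND passed without HP 3.

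Fabp5 was lower in HP livers than in ND livers without overlap, but did not pass. It had 14.7, 14.3 and 19.4 FPKM in HP livers, 25.5, 13.4 and 5.75 FPKM in HR livers, and 21.6, 33.0 and 41.9 FPKM in ND livers. HR 1 lay inside the ND range, and HR 3 was the lowest of all 9. The difference was -0.92 ± 0.40 in HP (limma adjusted p = 0.101) and -1.23 ± 0.40 in HR (limma adjusted p = 0.126), each relative to ND. HP against ND passed in 4 of 17 alternative settings: rescaled to the same sum, fitted with the 2 groups alone, and without HR 1 or HR 3. HR against ND passed without HR 1.

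Lpl and its inhibitor Angptl4 gave no call in liver. Lpl had 4.59, 5.57 and 5.84 FPKM in HP livers, 4.46, 5.51 and 2.22 FPKM in HR livers, and 3.69, 4.95 and 4.70 FPKM in ND livers, with overlap throughout. Its difference between HP and ND was 0.22 ± 0.23 (limma adjusted p = 0.482). Angptl4 had 89.4, 98.1 and 104 FPKM in HP livers, 96.1, 75.3 and 81.1 FPKM in HR livers, and 117, 97.7 and 129.9 FPKM in ND livers. The HR livers lay below the ND livers, and HP overlapped both. The difference was -0.23 ± 0.14 in HP (limma adjusted p = 0.219) and -0.44 ± 0.14 in HR (limma adjusted p = 0.117), each relative to ND. Rescaling every library to the same summed FPKM moved the median of all genes between HP and ND to -0.20 and brought Angptl4 past the threshold as lower in HP. With that scaling the calls of all genes split into 1109 higher and 2439 lower in HP, against 1870 higher and 1502 lower as deposited. Fabp4, Cd36, Vldlr and Slc27a2 passed under it too.

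**Figure D2:**
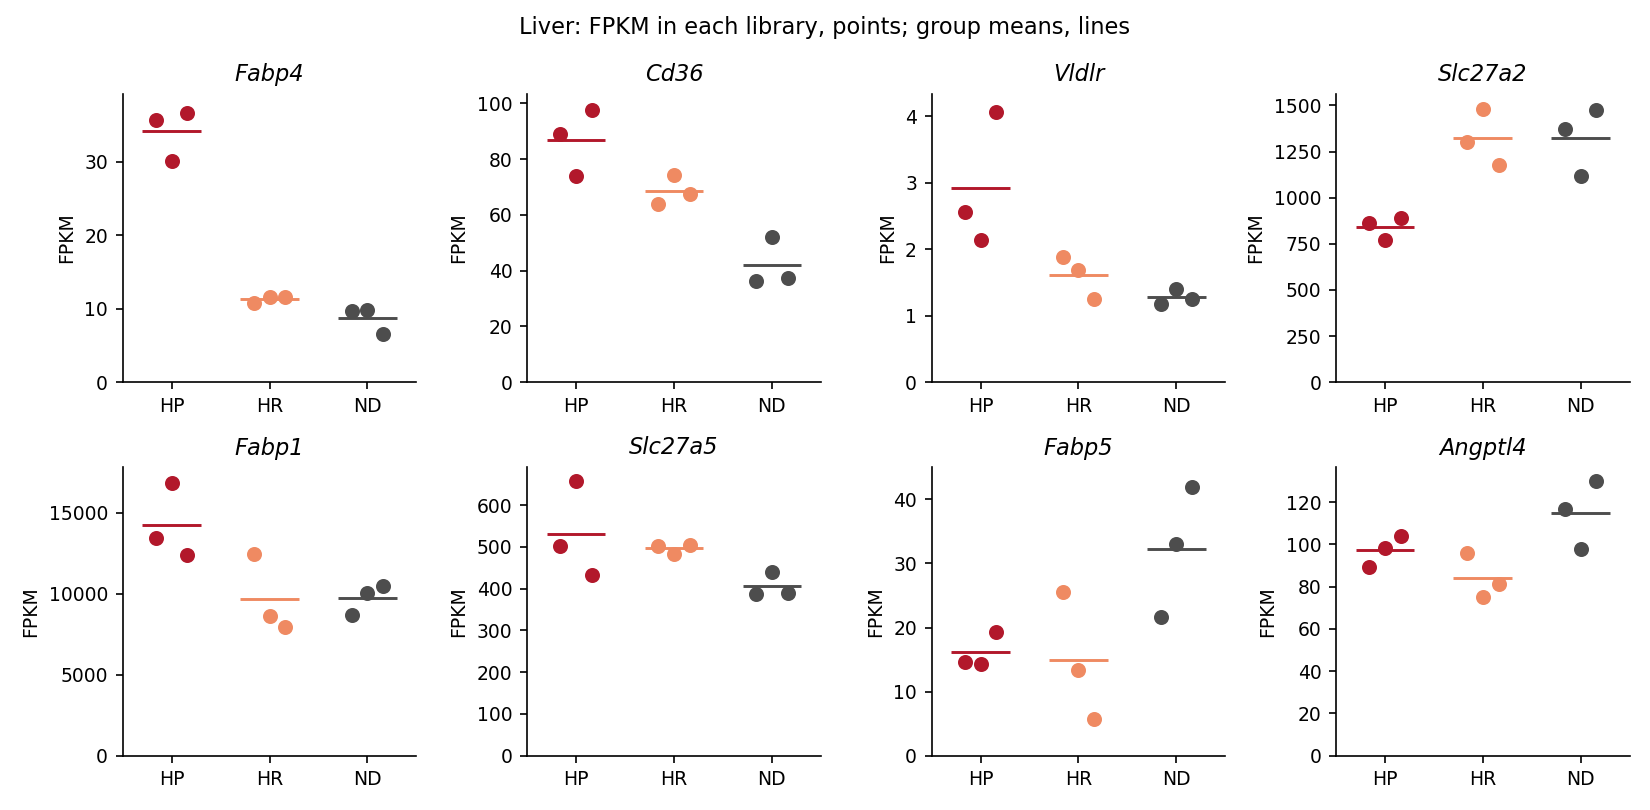
FPKM of 8 members in liver, with HP, HR and ND from left to right; points are libraries and lines are group means (n = 3). Fabp4 and Vldlr stand highest in the 3 HP livers and Slc27a2 lowest, Cd36 is higher in all 6 high-fat livers than in the 3 ND livers, and Fabp5 spreads from 5.75 to 25.5 FPKM among HR livers.

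In eWAT, Fabp5 was the member that moved with diet. It had 639, 530.1 and 539 FPKM in HP fat, 348, 84.0 and 357 FPKM in HR fat, and 24.8, 147 and 107 FPKM in ND fat. All 3 HP libraries lay above the other 6, HR 1 and HR 3 lay above all ND libraries, and HR 2 lay inside the ND range. Over all 9 libraries the difference was 2.93 ± 0.77 in HP (limma adjusted p = 0.125) and 1.56 ± 0.77 in HR (limma adjusted p = 0.990), each relative to ND, and 1.37 ± 0.77 between HP and HR (limma adjusted p = 0.958). None of the 7 members tested passed in these 3 comparisons, in which 2.11%, 0% and 0% of 14430 genes passed at all. The genes with an unadjusted p under 0.05 numbered 1642 in HP against ND, 392 in HR against ND and 679 in HP against HR.

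Over the 7 libraries, Fabp5 averaged 569 ± 60.5 FPKM in HP fat (SD, n = 3), 352 ± 6.30 FPKM in HR fat (n = 2) and 127 ± 28.1 FPKM in ND fat (n = 2). It rose by 2.17 ± 0.17 on the log2 scale in HP relative to ND (limma adjusted p = 0.000325), or 4.47 times, and passed in all 15 alternative settings. It was the 1 member of 7 tested to rise, against 15.7% of 13054 genes. In HR relative to ND it rose by 1.48 ± 0.18 (limma adjusted p = 0.00907), or 2.77 times, again alone among the 7 members, against 3.85% of all genes. That call was lost with the 2 groups alone, with the replicate block and without HR 1 or HR 3, with the difference between 1.26 and 1.71 in every setting. HP against HR missed the threshold (0.68 ± 0.17, limma adjusted p = 0.0638) while 6.46% of all genes passed, and Fabp5 passed in 4 of 15 settings: the same sum, the 2 groups alone, and without ND 2 or ND 3.

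The share of Fabp5 relative to Fabp4 within a library is not changed by RNA of cells that lack both, and it was computed after the data had been seen. Fabp5 stood at 4.41, 3.89 and 4.47% of Fabp4 FPKM in HP fat, at 2.04, 2.22 and 2.57% in HR fat and at 0.803, 0.631 and 0.825% in ND fat. On this ratio ND 1 and HR 2 fell with the other libraries of their groups, and the 3 groups separated without overlap over all 9 libraries. The ratio shows unequal change of the 2 genes, not which of them changed.

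Macrophage markers moved beside Fabp5. All 7 (Adgre1, Cd68, Csf1r, Lyz2, Itgax, Trem2 and Gpnmb) rose over the 7 libraries in HP relative to ND, in HR relative to ND and in HP relative to HR, with median differences of 4.32, 2.63 and 1.49 on the log2 scale, against 0.01, 0.02 and 0.04 for all genes. Among all genes tested, 15.7%, 3.85% and 4.21% rose in these 3 comparisons. Over all 9 libraries 5 of the 7 markers rose in HP relative to ND, against 2.07% of all genes, and none passed in the other comparisons. Their summed FPKM was 4923, 3669 and 5186 in HP fat, 1654, 456 and 1995 in HR fat, and 62.3, 518 and 404 in ND fat. Adipocyte markers moved as well between HP and ND over the 7 libraries: Adipoq, Plin1, Cidec and Retn fell and Lep rose, against 7.4% of all genes that fell. None of the 5 passed over 9 libraries. Their part in the Fabp5 difference was not tested.

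**Figure D3:**
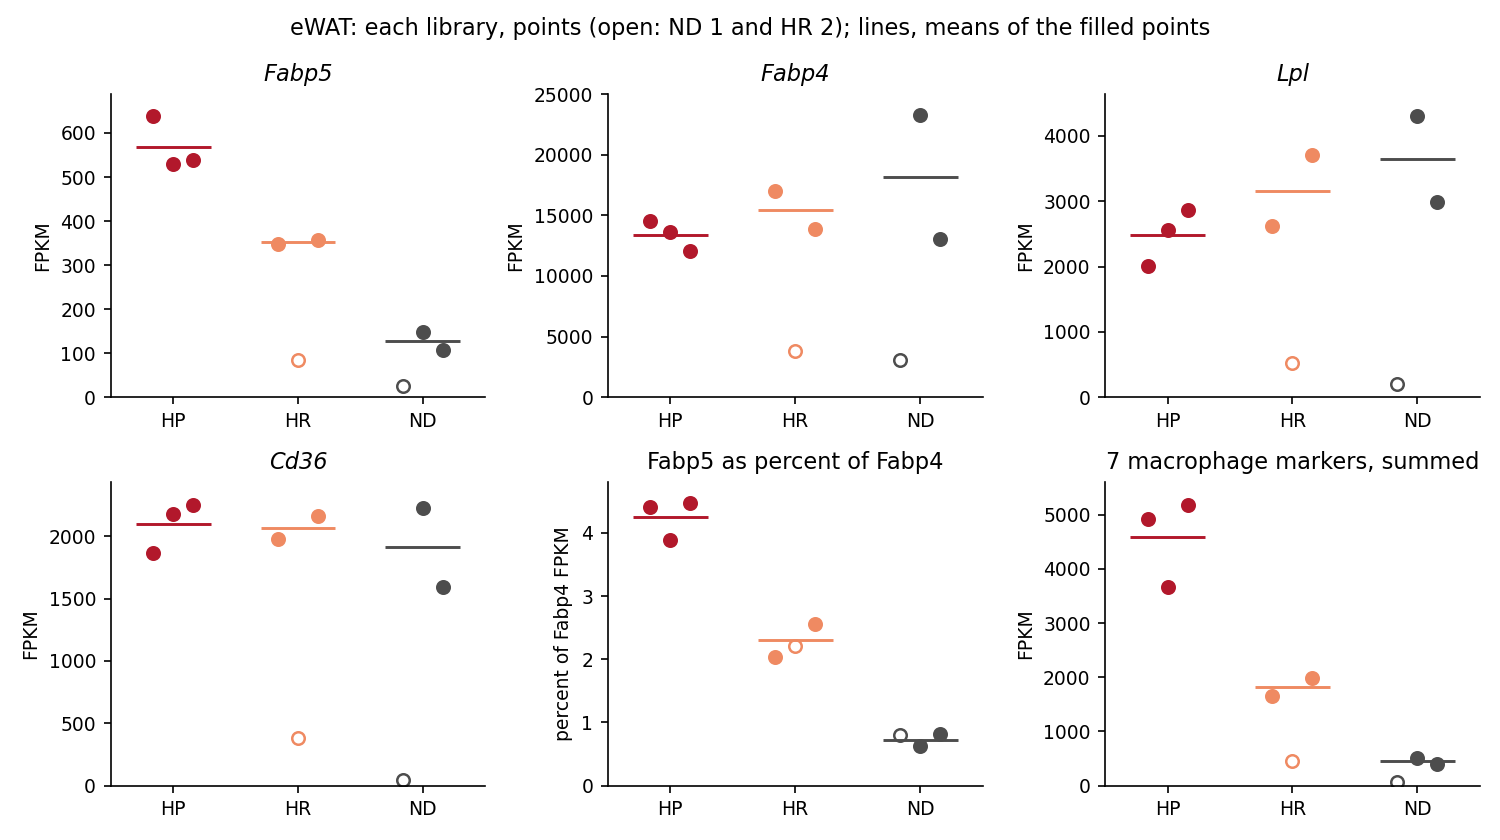
eWAT values per library, with HP, HR and ND from left to right: FPKM of Fabp5, Fabp4, Lpl and Cd36, Fabp5 as a percent of Fabp4 in the same library, and the summed FPKM of 7 macrophage markers; open points are ND 1 and HR 2, and lines are means without them. Fabp5, its percent of Fabp4 and the macrophage sum are highest in all 3 HP libraries, whereas Fabp4, Lpl and Cd36 overlap or nearly overlap between groups once the open points are set aside.

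The main eWAT members gave no diet call over the 7 or the 9 libraries. Fabp4 had 14495, 13621 and 12038 FPKM in HP fat, 17046, 3791 and 13910.0 FPKM in HR fat, and 3089.9, 23308 and 13012 FPKM in ND fat. Apart from HR 2 and ND 1 the groups overlapped, and the difference between HP and ND was -0.38 ± 0.32 (limma adjusted p = 0.438). Its sign was positive with quantile normalization and without ND 2, and it passed as lower without ND 3. Over all 9 libraries the difference was 0.45 ± 1.12 (limma adjusted p = 0.844), of the opposite sign. Cd36 had 1865, 2176 and 2254 FPKM in HP fat, 1976, 385 and 2162 FPKM in HR fat, and 43.0, 2230.0 and 1595 FPKM in ND fat. Its value in ND 1 was 1.39% of Fabp4, against 9.57 to 18.7% in the other 8 libraries. Lpl in ND 1 was 6.62% of Fabp4, against 13.9 to 26.6% in those 8. ND 1 was thus low in Cd36 and Lpl beyond its low Fabp4. The Cd36 difference between HP and ND was 0.15 ± 0.20 (limma adjusted p = 0.625), and it was -0.09 without ND 3. Over 9 libraries it was 1.96 ± 1.44 (limma adjusted p = 0.587).

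Lpl had 2008, 2563 and 2866 FPKM in HP fat, 2619.8, 531 and 3702 FPKM in HR fat, and 205, 4309 and 2990.0 FPKM in ND fat. Without ND 1 the HP libraries lay below both ND libraries, but the difference of -0.55 ± 0.27 over the 7 libraries did not pass (limma adjusted p = 0.194). Over all 9 libraries it was 0.83 ± 1.23 (limma adjusted p = 0.736), of the opposite sign. Angptl4 had 424, 339 and 377 FPKM in HP fat, 514, 99.7 and 436 FPKM in HR fat, and 32.2, 367 and 332 FPKM in ND fat. HR 1 and HR 3 were above the other 7 libraries, and HP lay across the range of ND 2 and ND 3. The difference over 7 libraries was 0.12 ± 0.15 in HP (limma adjusted p = 0.609) and 0.44 ± 0.16 in HR (limma adjusted p = 0.223), each relative to ND. Vldlr had 25.3, 36.4 and 31.0 FPKM in HP fat, 27.3, 7.19 and 37.8 FPKM in HR fat, and 1.64, 29.5 and 24.9 FPKM in ND fat. The groups overlapped without HR 2 and ND 1, and HP and ND differed by 0.17 ± 0.20 (limma adjusted p = 0.596). Over 9 libraries HP minus ND was 1.25 ± 0.99 for Angptl4 and 1.3 ± 0.96 for Vldlr (limma adjusted p = 0.591 and 0.587).

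The 3 liver members were scarce in eWAT. Slc27a2 had 0.581, 1.85 and 0.337 FPKM in HP fat, 6.22, 1.17 and 2.87 FPKM in HR fat, and 1.78, 0.0416 and 15.0 FPKM in ND fat. Its highest library, ND 3, also held the most Hnf4a (11.4 FPKM, at most 2.43 FPKM elsewhere in eWAT) and the most Vil1 (7.90 FPKM, at most 3.17 FPKM elsewhere), both genes of epithelial cells. The other markers of gut lining cells (enterocytes) listed with Vil1 did not single out ND 3. Rbp2 was at 1.90 FPKM in both ND 1 and ND 3, and Sis, Lct and Apoa4 were at most 0.381 FPKM in eWAT, highest outside ND 3. Whether epithelial cells gave the Slc27a2 reads was not tested. Fabp1 was at 1.09, 1.21 and 0.531 FPKM in HP fat, at 0, 0.167 and 0.174 FPKM in HR fat and at 0.507, 0 and 0 FPKM in ND fat. Slc27a5 reached at most 0.634 FPKM in any eWAT library. Fabp1 and Slc27a5 did not reach 1 FPKM in 3 eWAT libraries and were not tested there. Slc27a2 did not pass between HP and ND over 9 libraries (-0.98 ± 0.94, limma adjusted p = 0.623) or over 7 (limma adjusted p = 0.474). Over the 7 it passed as lower in HP without ND 2, and Fabp1 passed as higher in HP when no filter was used.

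**Figure D4:**
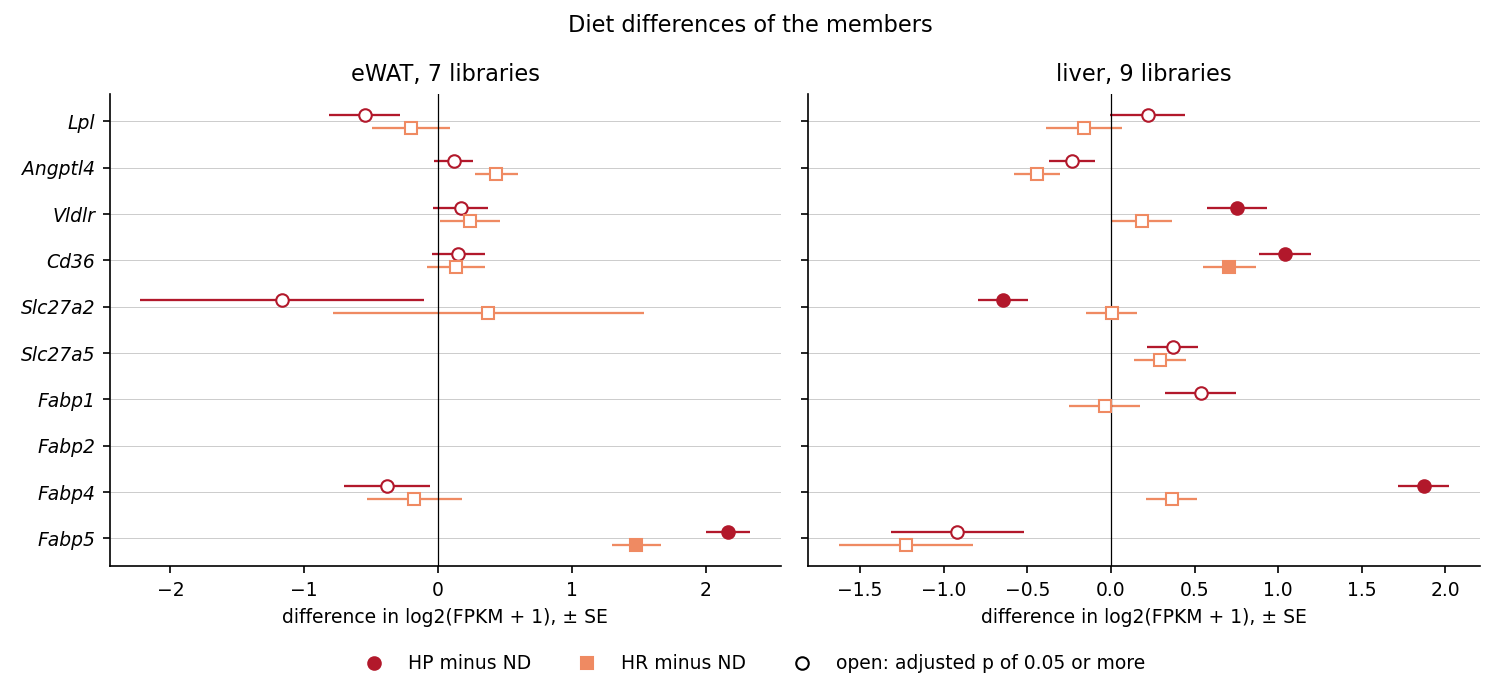
Differences of the tested members in log2(FPKM + 1) with their standard errors, HP minus ND (circles) and HR minus ND (squares), over 7 eWAT libraries on the left and 9 liver libraries on the right; filled symbols have a limma adjusted p under 0.05. Fabp5 is the filled gene of eWAT, and Fabp4, Cd36, Vldlr and Slc27a2 are those of liver; the horizontal scales of the panels differ.

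The tissue difference itself was tested as the diet difference in eWAT minus that in liver. Over 18 libraries Fabp5 was the 1 member of 9 that passed for HP against ND, at 3.85 ± 0.93 (limma adjusted p = 0.0289), against 4.1% of 15006 genes that passed with that sign. The call held in 16 of 26 alternative settings, the adjusted p ranging to 0.0843, and it was lost without any 1 of the eWAT HP or liver HP libraries, and without liver ND 2 or ND 3. No member passed for HR against ND, in which 0.06% of all genes passed in either direction, with 951 genes at an unadjusted p under 0.05. Without eWAT ND 1 and HR 2 (16 libraries), Fabp5 differed by 3.08 ± 0.56 (limma adjusted p = 0.00148), Fabp4 by -2.26 ± 0.30 (limma adjusted p = 0.000127) and Cd36 by -0.89 ± 0.25 (limma adjusted p = 0.0181) for HP against ND. In that fit 14.8% of all genes passed with a positive and 9.9% with a negative sign. Fabp5 and Fabp4 passed when any further library was left out, and Cd36 was lost without eWAT ND 2. Over all 18 libraries the Cd36 value was 0.92 ± 1.51, of the opposite sign. For HR against ND over 16 libraries, Fabp5 differed by 2.71 ± 0.59 (limma adjusted p = 0.0167) and Angptl4 by 0.88 ± 0.21 (limma adjusted p = 0.0274), against 4.86% of all genes with that sign. The Fabp5 call was lost without eWAT HR 1 or HR 3. The Angptl4 call was lost with the replicate block and without eWAT HR 1, liver ND 1, ND 3, HR 2 or HR 3. Over 18 libraries the Fabp5 difference for HR against ND was 2.79 ± 0.93 and did not pass (limma adjusted p = 0.590). Libraries of eWAT and liver were treated as independent, since the labels do not say whether any came from the same mouse. Both tissues share an estimate of the spread in these fits, and the eWAT libraries resembled each other less.

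Related genes were counted in lists written from general knowledge, but chosen with earlier results of these data known. In liver, 5 of 11 genes of the lipase system (activators, inhibitors and maturation factors of lipoprotein lipase) rose in HP relative to ND and none fell, against 17.6% and 14.1% of all genes tested, with a median of 0.50 against -0.02 for all genes. Examples are Angptl8 (1.59 ± 0.48, limma adjusted p = 0.0275), a secreted lipase inhibitor, Apoc2 (1.17 ± 0.16, limma adjusted p = 0.000772), an activator of the lipase, and Apoc3 (1.1 ± 0.22, limma adjusted p = 0.00501), which slows lipolysis. Angptl8 was at 57.2, 55.9 and 23.4 FPKM in HP livers and at 7.66, 33.0 and 9.01 FPKM in ND livers, which overlap. Apoc2 and Apoc3 rose in HP relative to HR as well, against 7.2% of all genes, and no gene of the list passed between HR and ND. In eWAT over 7 libraries, none of the 9 tested passed in any comparison. Over all 9 eWAT libraries 1 gene of this list and the 4 lists that follow passed, Fabp7 in HP relative to ND.

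Of the long-chain acyl-CoA synthetases, which activate fatty acids as Slc27a2 does, 3 of 4 tested fell in HP livers relative to ND, against 14.1% of all genes. Acsl1 had 462, 336 and 393 FPKM in HP livers against 979, 617 and 908 FPKM in ND livers (-1.05 ± 0.19, limma adjusted p = 0.00343), with no overlap. Acsl4 and Acsl5 fell by 0.53 ± 0.17 and 0.44 ± 0.14 (limma adjusted p = 0.0353 and 0.0382). The median of the 4 was -0.48. In eWAT over 7 libraries 1 of 4, Acsl5, rose in HP relative to ND (0.80 ± 0.11, limma adjusted p = 0.00302), against 15.7% of all genes.

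Of 7 nuclear receptors of these genes, 1 rose and 1 fell in HP livers relative to ND, shares near the 17.6% and 14.1% of all genes. Pparg, the receptor that drives Fabp4 and Cd36 in fat cells, had 13.3, 15.3 and 17.1 FPKM in HP livers, 12.7, 7.64 and 7.02 FPKM in HR livers, and 5.30, 6.96 and 5.79 FPKM in ND livers. Every HP liver exceeded every other liver, and the difference was 1.21 ± 0.20 (limma adjusted p = 0.00197). Hnf4a, a hepatocyte regulator, fell by 0.44 ± 0.14 (limma adjusted p = 0.0392). Between HP and HR livers 1 rose, Pparg (0.71 ± 0.20), and 2 fell, Rxra (-0.69 ± 0.18) and Hnf4a (-0.55 ± 0.14), with limma adjusted p-values of 0.0338 to 0.0399, against 7.2% and 3.94% of all genes. No receptor passed between HR and ND in liver. In eWAT over 7 libraries 1 of 6 passed between HP and ND, Rxra, which fell by 0.52 ± 0.15 (limma adjusted p = 0.0458), and it also fell in HP relative to HR (-0.69 ± 0.15, limma adjusted p = 0.0451). Of all genes, 7.4% and 2.25% fell in these comparisons.

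Of 4 lipoprotein receptors other than Vldlr, 3 were tested in liver and none passed against ND. Scarb1, which takes up lipid from HDL, fell in HP relative to HR livers (-0.42 ± 0.12, limma adjusted p = 0.0479), against 3.94% of all genes. In eWAT over 7 libraries 2 of 4 rose in HP relative to ND, the endocytic receptor Lrp1 (1.27 ± 0.18, limma adjusted p = 0.00339) and Scarb1 (0.82 ± 0.19, limma adjusted p = 0.0220), against 15.7% of all genes. None passed between HR and ND fat. Among 13 further transporters and binding proteins, 1 of 6 tested rose in HP livers relative to ND, near the 17.6% of all genes. It was Dbi, the acyl-CoA-binding protein, with 1908, 1958 and 1790.4 FPKM in HP livers against 1063, 1205 and 1072 FPKM in ND livers (0.76 ± 0.13, limma adjusted p = 0.00215). Dbi rose relative to HR livers too (0.90 ± 0.13, limma adjusted p = 0.00405). In eWAT 1 of 10, the brain-type protein Fabp7, rose in HP and in HR relative to ND over 7 libraries, against 15.7% and 3.85% of all genes. It had 6.62, 3.91 and 4.64 FPKM in HP fat, 2.26, 0.959 and 1.95 FPKM in HR fat, and 0.136, 0.265 and 0 FPKM in ND fat, and its differences were 2.4 ± 0.26 and 1.46 ± 0.28 (limma adjusted p = 0.00115 and 0.0397). Over 9 libraries it passed in HP relative to ND (2.4 ± 0.33, limma adjusted p = 0.0246). The fatty acid transporter Slc27a1 fell in HP relative to HR fat over 7 libraries (-0.91 ± 0.16, limma adjusted p = 0.0294), against 2.25% of all genes.

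The testis binding protein Fabp9 followed the spermatid transcripts. In eWAT it had 85.0, 0.996 and 0.821 FPKM in HP, 0.3, 965 and 1.47 FPKM in HR and 2973, 8.55 and 162 FPKM in ND, and it is listed at 0 in all 9 livers. ND 1 and HR 2 were its highest libraries.

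Genes with the pattern most like a liver member were ranked by Pearson's r of log2(FPKM + 1) over the 9 livers, among 6552 genes of at least 5 FPKM. The points share the diet groups and each library's scaling, so the values are a description. For Fabp4 the nearest were Gstm2 (r = 0.980), Ebpl (r = 0.979) and Klhl5 (r = 0.978). For Cd36 they were Hnmt (r = 0.991), Acss2 (r = 0.982) and Lyplal1 (r = 0.980). For Vldlr they were Ppt1 (r = 0.949), Fkbp1a (r = 0.939) and Selenof (r = 0.932), and for Slc27a2 Jade1 (r = 0.982), Pzp (r = 0.976) and Cmah (r = 0.973).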

How the data were processed

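Messenger RNA of eWAT and liver was measured in 18 libraries, grouped and numbered by the sample titles. The authors deposited 1 table of FPKM per gene. The submitters' processing notes name CASAVA 1.8.2 beside STAR 2.4.0, and Cufflinks 2.1.1. What each did, the build, the gene models and whether strand was used: not given in the sources used here. GENCODE M21 gave symbols for 22671 of 23474 identifiers. FPKM holds no total count, so depth is unknown and no counting interval was possible.

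Tests used limma 3.58.1 (R 4.3.3) on log2(FPKM + 1), a scale that understates differences of low genes, with a variance trend, for genes of at least 1 FPKM in at least 3 libraries of the fit. P-values were two-sided, Benjamini-Hochberg adjusted over all genes tested and called below 0.05. Fits covered liver (9 libraries), eWAT (9 and 7) and both tissues (18 and 16). The liver and eWAT fits were tested on simulated data for HP against ND, and the fits of both tissues were not.

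The members, gene lists and comparisons were chosen with earlier results of these data known. Not every member's difference is printed for each comparison. Of a list, up to 4 genes past the threshold are named, largest difference first. Fabp9, Adipoq, Plin1, Cidec, Hnf4a, Vil1 and the other enterocyte markers were added beside members after their values were seen. Alternatives were a pseudocount of 0.1, no filter, quantile normalization, the same sum, a length and GC correction, no variance trend, a replicate block, 2 groups alone and each library left out. A few genes of the lists are not reported here. Leaving libraries out of the 16-library fit and the Fabp5 to Fabp4 ratio were added after seeing the data. Figures were drawn with matplotlib 3.10.9.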

Additional observations from a re-analysis of the deposited data

Results flagged for a closer look

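Fabp5 passed a test of the tissue difference itself for HP against ND. Over 18 libraries its HP minus ND difference was 3.85 larger in eWAT than in liver on the log2 scale (limma adjusted p = 0.0289). That call held in 16 of 26 alternative settings, and 4.1% of all genes passed with that sign. Over the 16 libraries without eWAT ND 1 and HR 2 it was 3.08 larger (limma adjusted p = 0.00148), where 14.8% of all genes passed with that sign. For HR minus ND it was 2.71 larger in eWAT over the 16 libraries, and did not pass over 18.

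Over the same 16 libraries, eWAT minus liver was -2.26 for the HP minus ND difference of Fabp4, -0.89 for that of Cd36 and 0.88 for the HR minus ND difference of Angptl4. These 3 did not pass over 18 libraries, and the 16-library fit leaves 2 libraries in the eWAT ND and HR groups.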

How the results depend on the processing

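Of 277 recomputed counts of called members, 242 were within 1.5 times the value given. These include counts of 0 that stayed at 0, as in every alternative for eWAT over 9 libraries. In liver HR against ND the count of 1 became 0 with no filter, quantile normalization, rescaling to the same sum or the replicate block, and 0 to 1 with libraries left out. In liver HP against HR the count of 2 became 1 with no filter and 1 to 3 with libraries left out. In eWAT over 7 libraries, HP against ND went to 2 with no filter and 1 to 2 with libraries left out, HR against ND to 0 with the replicate block or 2 groups alone and 0 to 1 with libraries left out, and HP against HR, at 0, to 1 with the same sum or 2 groups alone and 0 to 1 with libraries left out. The tissue difference in HP against ND had 0 members with quantile normalization or the replicate block, 0 to 2 with 1 library left out and 3 without eWAT ND 1 and HR 2. That in HR against ND had 0 with any 1 library left out and 2 without both. The cause of these changes was not tested.

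Some member differences changed sign. Slc27a2 in liver HR against ND was -0.0203 with quantile normalization, -0.0223 with the same sum, -0.0364 with the length and GC correction and -0.112 to 0.0883 with libraries left out. With quantile normalization Fabp1 in liver HP against HR was -0.118, and in eWAT HP against ND over 7 libraries Angptl4 was -0.0854 (-0.0278 with the length and GC correction) and Fabp4 0.132. With libraries left out, Fabp4 there was -0.804 to 0.0364 and Cd36 -0.0925 to 0.391. The tissue difference of Cd36 in HP against ND was -0.892 to 1.94 with libraries left out, and -0.892 without eWAT ND 1 and HR 2. In eWAT HP against ND over 9 libraries, leaving libraries out gave -0.549 to 1.65 for Lpl, -0.384 to 1.07 for Fabp4 and -1.87 to 0.0959 for Slc27a2, with Lpl and Fabp4 below 0 without ND 1. Of 45 further member differences not printed, none passed and 31 changed sign in some setting.

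Neither the labels nor the data show that replicate numbers pair the libraries. Deviations from the group means of same-numbered libraries correlated at -0.35 to 0.43 in liver and at -0.84 to 0.62 in eWAT. Between the eWAT and liver libraries of a diet group they correlated at -0.14 to 0.21. For differently numbered libraries the ranges were -0.27 to 0.32, -0.80 to 0.86 and -0.21 to 0.16, in the same order. With the replicate block the tissue difference of Fabp5 in HP against ND lost its call, as did Cd36 in liver and Fabp5 in eWAT in HR against ND, and the tissue difference of Angptl4 in HR against ND over 16 libraries. FPKM carries no depth, so counting error cannot be set apart from the spread between libraries.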
